A study of Sus scrofa with 8 samples.

Results

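Colostrum was compared at 2 points of lactation, the day of birth (0 days) and 3 days later, through the small RNA carried by exosomes of porcine milk. The members were chosen by stage and are 4 of the 8 libraries of the series, namely 0d-1, 0d-2 and 0d-3 at 0 days and 3d at 3 days. The milk came from healthy, multiparous Yorkshire sows with no treatment. By the methods of the study, milk was taken from each sow at every stage. Each 0 day library was made from the milk of 1 sow, and 3d was made from RNA of the sows mixed in equal amounts. The stage of 3 days thus has no replicate, and differences between sows cannot be seen in it. Its stage cannot be separated from the library and the pooling. In all 4 libraries the vesicles were precipitated from defatted and filtered milk, and RNA of 10 to 40 nt was cut from a gel before sequencing. Precipitation collects small vesicles together with other particles, and the labels give no sort of vesicles by their cell of origin.

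miRNAs are short RNAs of about the length that the enzyme Dicer cuts, and they repress mRNAs that pair with their seed, the bases near the 5′ end. Milk is rich in miRNAs enclosed in vesicles, among which miR-148a-3p is known as the most abundant in several mammals. Colostrum is the first milk and is known for its immune components, which decline as mature milk takes its place.

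The comparison of known miRNAs rests on 13 that had q-PCR primers, and their sequences are shown for that reason. Capitals mark the seed, bases 2 to 8 from the 5′ end, and T stands for U.
let-7a-1-5p: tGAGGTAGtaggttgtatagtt
miR-148a-3p: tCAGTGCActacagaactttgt
miR-182-5p: tTTGGCAAtggtagaactcacact
miR-191-5p: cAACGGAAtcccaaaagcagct
miR-200c-3p: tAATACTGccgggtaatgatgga
miR-21-5p: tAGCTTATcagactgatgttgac
miR-25-3p: cATTGCACttgtctcggtctga
miR-27b-3p: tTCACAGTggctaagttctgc
miR-30a-5p: tGTAAACAtcctcgactggaagc
miR-30c-5p: tGTAAACAtcctacactctcagct
miR-30d-5p: tGTAAACAtccccgactggaagc
miR-375-3p: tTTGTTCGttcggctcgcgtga
miR-574-3p: cACGCTCAtgcacacacccaca
The 3 members of the miR-30 family share a seed, and each of the other 10 miRNAs has a seed of its own.

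The next set is shown because the results on length, on leaders and on 0d-3 turn on these tags. The first pair are 16-nt tags that were abundant at 3 days, with their shared end of 8 nt in capitals. The third line is the largest tag of 0d-3, with the 13 nt that it shares with tag 2 in capitals. The last pair of lines carry at their 5′ end 1 of 4 frequent sequences of 5 nt, here called leaders and given in capitals.
tag 1: gacgaggtGGCCGTGA
tag 2: gtcaggatGGCCGTGA
largest tag of 0d-3: GTCAGGATGGCCGagcggtct
leader 2 tag, 0 days: AAGCTcctgtctgagcgtcgct
leader 3 tag, 3 days: TCAAGcctgtctgagcgtcgct
The last 2 tags differ in their leader and have the same remaining 17 nt. The genomic origin of the tags outside the 13 miRNAs was not assigned, since no pig genome or miRNA catalogue was used.

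The libraries were of similar size, with 20468495 reads in 0d-1, 24189635 in 0d-2, 18224844 in 0d-3 and 21123540 in 3d. The part of the reads that held small RNA was not similar. After the 3′ adaptor was cut, inserts of 16 to 26 nt made up 17.8% of the reads of 0d-1, 20.3% of 0d-2, 77.0% of 0d-3 and 11.8% of 3d. Tags are inserts of this length with no undetermined base, and those seen more than 10 times in a library are called kept tags. Kept tags had 2552366 counts of 24555 kinds in 0d-1, 3623646 of 32972 kinds in 0d-2, 13540884 of 19142 kinds in 0d-3 and 1741863 of 18818 kinds in 3d. In 3d, a kept tag needed at least 11 counts, which are 0.000632% of the kept counts, and a count of 0 allows a share of up to 0.000172%, that of 3 counts. Such limits, and the intervals given further on, cover only the error of counting, because PCR copies of 1 molecule could not be recognised without molecular identifiers.

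0d-3 stood apart from the other 0 day libraries before any comparison of stages. The 4 leaders are leader 1 (CGTGA), leader 2 (AAGCT), leader 3 (TCAAG) and leader 4 (GATCT). Tags with a leader took 71.6% of the kept counts in 0d-1, 70.4% in 0d-2, 0.0673% in 0d-3 and 75.5% in 3d. 0d-1, 0d-2 and 3d were alike in this, and 0d-3 almost lacked such tags. A single tag, printed above, took 29.9% of the kept counts of 0d-3 but 0.0658% in 0d-1 and 0.0879% in 0d-2. miR-148a-3p was at 0.0231% of the kept counts of 0d-3 against 6.76% in 0d-1 and 7.27% in 0d-2. Whether 0d-3 was prepared in another way or came from another sample was not tested. 0d-1 and 0d-2 shared all of their 10 largest units, a unit being a miRNA of the 13 or the tags with the same first 18 nt. Their counts of the 13 miRNAs differed by more than counting error (chi-square divided by its degrees of freedom, 42.7), which does not tell separate samples from repeated preparations or runs of 1 sample. Results are therefore given against all 3 libraries of 0 days and against 0d-1 and 0d-2 alone, and shares are given also over leader-free tags.

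Tags were shorter at 3 days than in any 0 day library. The mean length of kept tags was 21.6 nt in 0d-1, 21.7 nt in 0d-2, 22.2 nt in 0d-3 and 19.2 nt in 3d. Tags of 21 to 24 nt, the range of mature miRNAs, made up 61.3% of the kept counts in 0d-1, 60.3% in 0d-2, 79.9% in 0d-3 and 27.5% in 3d. The difference from the 0 day mean of 67.1% ± 11.1 (SD, n = 3) was -39.6 percentage points, and 3d lay outside the range of the 3 libraries. The size of this difference depended on the leaders, which add 5 nt to a tag. When the leaders were removed and the remainders counted with the leader-free tags, a total chosen after the data were seen, the shares were 37.9% in 0d-1, 41.4% in 0d-2, 79.9% in 0d-3 and 31.2% in 3d. 3d was still the lowest, but the difference became -21.8 percentage points, and against 0d-1 and 0d-2 alone it was -8.41 in place of -33.2. With 1 library against 3, an exact permutation test cannot give a p below 0.25, and no p is given for the shares. As a share of kept counts with their leaders left on, the libraries of 7 to 28 days lay between 3d and the 0 day libraries, from 47.5 to 59.3%.

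**Figure D1:**
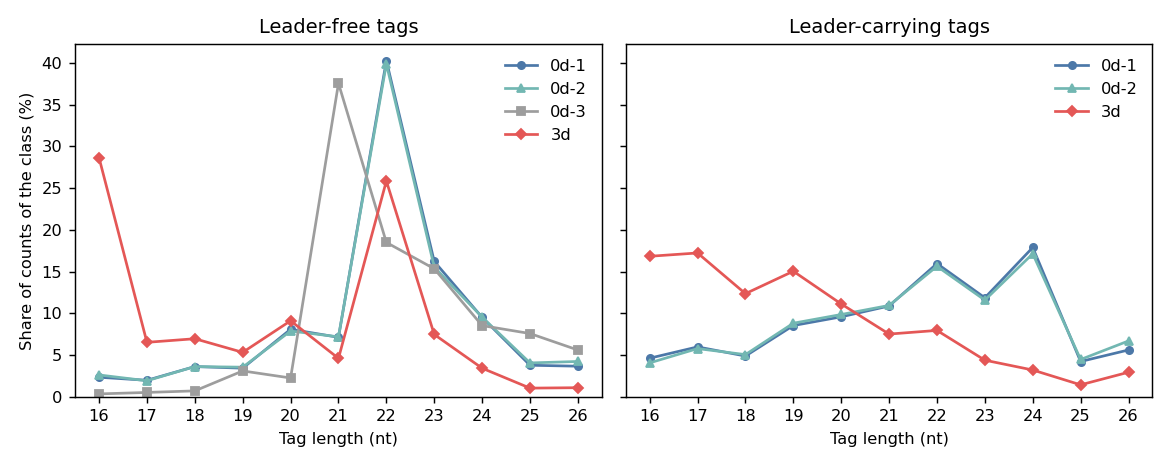
Length of kept tags (x axis, nt) as a share of the counts of their class (y axis, %), for leader-free tags (left) and leader-carrying tags (right), 1 line per library. 3d peaks at 16 nt among leader-free tags, where the 0 day libraries hold 0.345 to 2.62%, and among leader-carrying tags it lies on the short side of 0d-1 and 0d-2. 0d-3 is not drawn on the right because it had only 9107 such counts.

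The shift to short tags was present in both classes. Among leader-free tags, those of 16 to 18 nt took 7.94% of the counts in 0d-1, 8.15% in 0d-2, 1.57% in 0d-3 and 42.1% in 3d, while those of 21 to 24 nt took 73.1%, 72.1%, 79.9% and 41.3% in the same order. Among leader-carrying tags, 16 to 18 nt took 15.5% in 0d-1, 14.9% in 0d-2 and 46.4% in 3d. The most frequent leader-free length was 22 nt in 0d-1 and 0d-2, with 40.3 and 39.9% of the counts. At 3 days 22 nt held 25.9%, and 16 nt held 28.6%. Inserts longer than the kept range were also fewer at 3 days, with 0.359% of the reads at 27 to 32 nt against 1.48% in 0d-1, 2.61% in 0d-2 and 6.91% in 0d-3. The 16-nt peak lies at the short edge of the kept range. Below it, inserts of 15 nt took 2.17% of the reads in 3d against 1.49, 1.34 and 0.118% at 0 days. Those of 10 nt took 0.560% against 1.14, 0.898 and 0.198%, inside the 0 day range.

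Much of the 16-nt peak came from a family of tags with a common end. At 3 days, 38 kinds of 16-nt leader-free tag ended in the 8 nt shown in capitals in tags 1 and 2, and together they had 70216 counts. They were 16.5% of the leader-free counts of 3d, against 0.00662% in 0d-1, 0.244% in 0d-2 and 0.0861% in 0d-3. They were also 57.6% of all 16-nt leader-free counts at 3 days, against 0.283, 9.33 and 25% in the 0 day libraries. The end was chosen as the most frequent 8-nt end of 16-nt leader-free tags in 3d. That choice by itself favours 3d, so these shares are a description. The last 5 of the 8 letters are those of leader 1. Leader-free tags that ended in these 5 letters took 17.0% of the counts in 3d and from 0.498 to 0.724% at 0 days. In 3d these were largely the same tags, since the family made up 70216 of the 72433 counts. The family was found in mature milk too, and took 8.18% of the leader-free counts at 7 days, while the other later libraries held 0.239 to 1.65%. As a share of kept counts it was at 4.03% in 3d and at 4.11% at 7 days.

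Tag 1 was counted 26 times in 0d-1, 1409 times in 0d-2, 7103 times in 0d-3 and 32201 times in 3d, where it was the largest unit after miR-148a-3p. Tag 2 was counted 10 times in 0d-1, 816 times in 0d-2, 844 times in 0d-3 and 16371 times in 3d. Together they made up 69.2% of the counts of the family at 3 days. Tag 2 begins with the same 13 nt as the largest tag of 0d-3, and the lengths of the tags with this beginning differed between the stages. Of their counts, the 16-nt class held 1.55% in 0d-1, 19% in 0d-2, 0.0219% in 0d-3 and 95.8% in 3d, and the 21-nt class held 91.6, 75.0, 99.5 and 3.95%. In both classes the single library 3d lay outside the range of the 3 libraries of 0 days. The 8 members of the family that were looked at in this way were chosen for their counts of 16 nt at 3 days, which by itself favours a high 16-nt share in 3d, so these shares are a description. For 2 of the 8, tag 2 and ggtagcgtGGCCGTGA, the largest other tag with the same beginning had 21 nt. ggtagcgtGGCCGTGA held 1.40, 10.3 and 0.351% of the counts of its first 13 nt at 0 days and 89.6% at 3 days. The other 6 each already held more than 50% in at least 1 library of 0 days, and 4 of the 8 had under 100 counts of the beginning in 0d-1 and in 0d-2. Tag 1 made up 66.7, 96.4 and 85.9% of such counts at 0 days and 99.3% at 3 days, with 39, 1461 and 8267 counts of this beginning at 0 days and 32422 at 3 days.

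**Figure D2:**
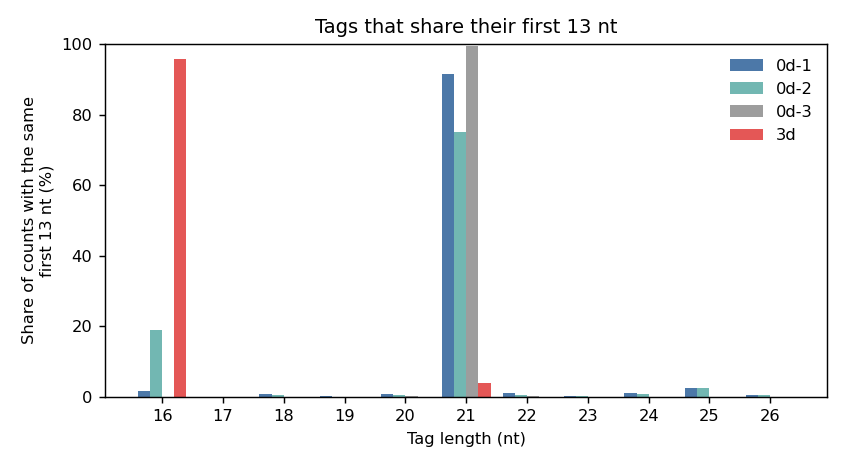
Length (x axis, nt) of the tags that share their first 13 nt with tag 2, as a share of the counts of those tags in each library (y axis, %), 1 bar per library. In the 3 libraries of 0 days the bar at 21 nt is the tallest, and in 3d the bar at 16 nt holds 95.8%.

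The leaders at the start of tags also differed between the stages. Leaders 1 and 2 took 80.9% of the leader-carrying counts in 0d-1 and 79.8% in 0d-2 but 7.69% in 3d. Leaders 3 and 4 took the rest, 19.1%, 20.2% and 92.3%. In the libraries of 7 to 28 days leaders 3 and 4 took 18.4 to 22%, so that 3d was apart from all the other libraries of the series in this respect. The leaders also occurred alone, as inserts of exactly 5 nt, in 22.2% of the reads of 0d-1, 23.6% of 0d-2 and 24.2% of 3d. Among the leaders read alone, leaders 3 and 4 took 30.4% in 0d-1, 29.3% in 0d-2 and 41.1% in 3d. The change in the mix was thus larger on tags than among leaders read alone. The study does not describe these sequences, and whether they were in the RNA or were added during library construction was not tested.

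**Figure D3:**
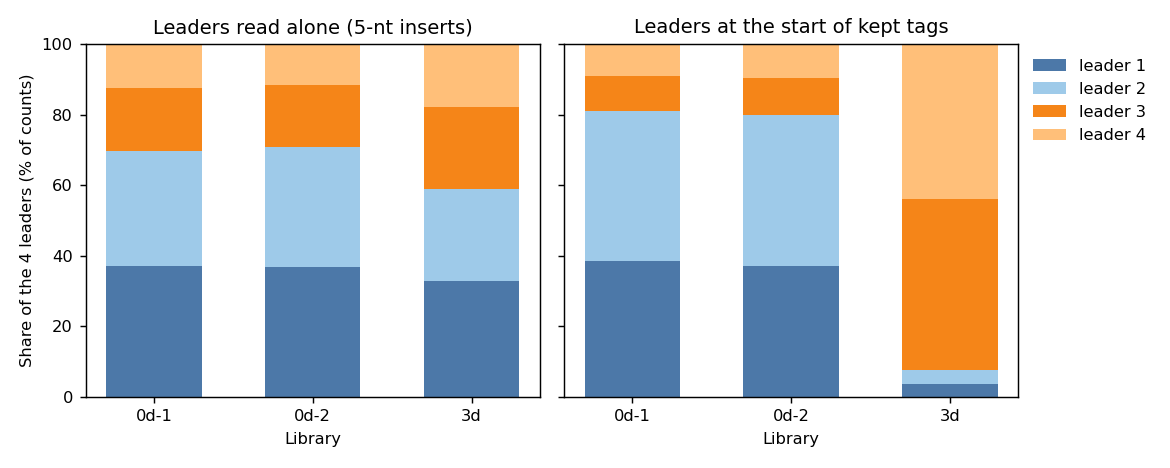
Share of each of the 4 leaders (y axis, % of their counts) in 0d-1, 0d-2 and 3d (x axis), among leaders read alone (left) and at the start of kept tags (right). Leaders 3 and 4 make up 92.3% on the tags of 3d, against 41.1% when read alone. 0d-3 is not drawn because it almost lacked leaders.

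What followed the leader was partly the same at both stages. With the leader removed, and remainders of 16 to 26 nt counted, the remainder cctgtctgagcgtcgct was the largest in 0d-1, 0d-2 and 3d, with 5.54, 5.25 and 5.76% of the counts. It is the common part of the leader 2 and leader 3 tags shown above. The remainder tggagtgtgacaatggtgttt took 0.843% in 0d-1, 1.02% in 0d-2 and 3.26% in 3d. The remainder gggccagtggcgcaatgga took 3.07% in 0d-1, 2.82% in 0d-2 and 0.798% in 3d. Leader-carrying tags ended in CCA in 23.9% of their counts in both 0d-1 and 0d-2 and in 38.2% at 3 days. Leader-free tags ended so in 5.94, 6.27 and 16.2% of their counts. CCA is the end that cells add to mature tRNAs, although the origin of these tags was not examined. The 13 miRNAs together made up 2.40% of the remainders in 0d-1, 2.99% in 0d-2 and 1.73% in 3d, but they differed in where they were found. In these 3 libraries let-7a-1-5p, miR-21-5p and miR-27b-3p had more counts behind a leader than without one, and the other 10 had fewer. miR-148a-3p had 4586 counts behind a leader and 172551 without one in 0d-1, 8231 and 263602 in 0d-2, and 1315 and 73734 in 3d.

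The 13 miRNAs together took 10.5% of the kept counts in 0d-1, 11.2% in 0d-2, 22.1% in 0d-3 and 6.0% in 3d. The value of 3 days lay below all 3 libraries, with a difference of -8.60 percentage points from the 0 day mean of 14.6% ± 6.49 (SD, n = 3). This direction turned to 15.8 percentage points with leader-free tags of 21 to 24 nt as the total, given further on. Among leader-free tags the shares were 37.0, 37.9 and 22.1% at 0 days and 24.5% at 3 days, which lay inside the 0 day range because of 0d-3, and below both other libraries. Of the 13, 11 lay below the 0 day range at 3 days as a share of kept counts and 2 (miR-148a-3p and miR-21-5p) lay inside it. Among all 34275 units tested, 6.67% lay below this range and 37.6% above it. A unit that 0d-3 lacked could not lie below it, and tags with a leader were only 0.0673% of its kept counts. The 6.67% is thus low in part by construction, as are the later shares of units below the 3 libraries. Against 0d-1 and 0d-2 alone, 12 of the 13 were lower and 1 higher, beside 50.8% of all units lower and 39.1% higher. Over leader-free tags, 11 of the 13 were below the 3 libraries and 1 was above, beside 11.7% and 31.9% of 10802 leader-free units. Against 0d-1 and 0d-2 alone the leader-free counts were 12 lower and 1 higher, beside 52.9% lower and 33.8% higher.

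miR-148a-3p, the main miRNA of milk, had 172513 counts in 0d-1, 263566 in 0d-2, 3132 in 0d-3 and 73698 in 3d. Its share of kept counts at 3 days was 4.23% (95% Wilson interval 4.20 to 4.26%), inside the 0 day range of 0.0231 to 7.27% and below 0d-1 and 0d-2. Of leader-free counts it held 23.8% in 0d-1, 24.6% in 0d-2, 0.0231% in 0d-3 and 17.3% in 3d. On 2 totals given further on, 3d lay above all 3 libraries of 0 days. It held 8.54% with the leaders removed and 41.9% of leader-free tags of 21 to 24 nt. It was the largest of the 13 in 0d-1, 0d-2 and 3d, with 64.3, 64.9 and 70.5% of their counts, while it held 0.105% of them in 0d-3. In that library the tag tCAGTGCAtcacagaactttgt, which has the same seed, was counted 5923 times and so exceeded miR-148a-3p. In 3d it was counted 508 times.

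miR-21-5p, which is induced in many activated cells, was the only one of the 13 to lie above the 0 day range among leader-free tags. Its share of leader-free counts was 0.485% in 0d-1, 0.300% in 0d-2, 0.154% in 0d-3 and 0.577% in 3d, the highest of the 4 libraries. Its tags were also more often of the exact listed sequence at 3 days, 61.0% of its counts against 45.8, 33.3 and 37.5% at 0 days. Its share also differed between 0d-1 and 0d-2 by more than that of any other of the 13 in ratio. Outside 0d-3 most of its counts lay behind a leader, where it had 21383 counts in 0d-1, 39911 in 0d-2, 25 in 0d-3 and 4049 in 3d, beside 3531, 3240, 20859 and 2484 without one. Of the remainders behind a leader it held 1.15% in 0d-1, 1.49% in 0d-2 and 0.693% in 3d, so that its direction against 0d-1 and 0d-2 was the opposite there.

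Among the 13 were 3 of the miRNAs listed as typical of epithelium, and like 8 others of the 13 they were lower at 3 days over leader-free tags. miR-200c-3p, which maintains the epithelial state by repressing ZEB factors, held 0.773% of leader-free counts in 0d-1, 0.722% in 0d-2, 3.31% in 0d-3 and 0.397% in 3d. miR-375-3p, known from epithelial and endocrine cells, held 0.262%, 0.260%, 0.481% and 0.176%. miR-182-5p, a member of the miR-183 cluster of sensory and epithelial cells, held 1.58%, 1.68%, 1.63% and 0.732%. All 3 lay below every 0 day library, and miR-182-5p was the one whose 0 day libraries were closest to each other. Of leader-free tags of 21 to 24 nt, miR-200c-3p held 1.05, 0.996 and 4.13% at 0 days and 0.960% at 3 days, while miR-375-3p held 0.355, 0.358 and 0.599% and 0.426%, which is above 0d-1 and 0d-2. Other miRNAs of epithelium and of leukocytes, red blood cells, muscle and connective tissue could not be matched without a catalogue, so that the cell source of the exosomes was not checked.

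The members of the miR-30 family were lower together at 3 days as a share of leader-free counts, and less so among tags of 21 to 24 nt. miR-30a-5p held 4.28% of leader-free counts in 0d-1, 4.40% in 0d-2, 4.72% in 0d-3 and 2.21% in 3d. miR-30c-5p held 0.950%, 0.986%, 1.34% and 0.483%, and miR-30d-5p held 1.30%, 1.31%, 1.25% and 0.673%. The 3 libraries of 0 days were close for miR-30a-5p and miR-30d-5p, 0d-3 was higher than the others for miR-30c-5p, and 3d was below all of them for each member. All tags with the seed of the family took 6.76, 6.91 and 7.62% at 0 days and 3.46% at 3 days. Of leader-free tags of 21 to 24 nt, miR-30a-5p held 5.78, 6.01 and 5.82% at 0 days and 5.26% at 3 days, and miR-30c-5p held 1.30, 1.36 and 1.67% and then 1.17%. miR-30d-5p held 1.75, 1.79 and 1.54% and then 1.61%, inside the 0 day range.

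let-7a-1-5p, of a family that promotes differentiation, held 0.315% of leader-free counts in 0d-1, 0.304% in 0d-2, 0.680% in 0d-3 and 0.184% in 3d. miR-25-3p, of the miR-106b cluster within MCM7, held 1.45%, 1.45%, 4.03% and 0.783%. The tag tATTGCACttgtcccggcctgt with the same seed held 1.11%, 1.04%, 2.26% and 0.654%. miR-191-5p held 0.780%, 0.843%, 2.99% and 0.415%, miR-27b-3p held 0.294%, 0.294%, 0.485% and 0.175%, and miR-574-3p held 0.750%, 0.728%, 1.02% and 0.425%. For each of these, 0d-3 was the highest library and 3d the lowest among leader-free counts. let-7a-1-5p had the opposite direction against 0d-1 and 0d-2 elsewhere. Of the remainders behind a leader, where most of its counts lay outside 0d-3, it held 0.262% in 0d-1, 0.315% in 0d-2 and 0.353% in 3d, and of leader-free tags of 21 to 24 nt it held 0.428, 0.420 and 0.439%.

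Because short tags filled much of 3d, the same miRNAs were also set against leader-free tags of 21 to 24 nt, a total chosen after the data were seen. On this scale the 13 together held 50.3% in 0d-1, 52.1% in 0d-2, 27.3% in 0d-3 and 59.0% in 3d, so that the direction of the difference turned and 3d became the highest. miR-148a-3p held 32.6% in 0d-1, 34.1% in 0d-2, 0.0290% in 0d-3 and 41.9% in 3d, and miR-21-5p held 0.663, 0.415, 0.193 and 1.40%. Most of the others came close to 0d-1 and 0d-2. miR-574-3p held 1.02, 1.0 and 1.26% at 0 days and 1.02% at 3 days, and miR-27b-3p held 0.394, 0.401 and 0.60% against 0.412%. miR-182-5p stayed below all 3 libraries with 1.64% against 2.0, 2.15 and 1.90%. Of the 13, 6 lay below the 0 day range and 2 above it, beside 11.0% and 25.6% of 5113 units of this length. Against 0d-1 and 0d-2 alone 7 were lower and 5 higher, beside 53.7% lower and 29.4% higher.

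The total with the leaders removed was used for the miRNAs too. On it the 13 together held 14.0% in 0d-1, 14.7% in 0d-2, 22.1% in 0d-3 and 13% in 3d, so that 3d was the lowest by a smaller margin. miR-148a-3p held 7.95, 8.24 and 0.0233% at 0 days and 8.54% at 3 days, above all 3 libraries. miR-21-5p held 1.12, 1.31 and 0.154% at 0 days and 0.738% at 3 days, inside their range and below 0d-1 and 0d-2. let-7a-1-5p held 0.321, 0.355 and 0.679% and then 0.322%. Of the 13, 10 lay below the 0 day range and 1 above it, beside 9.94% and 29.6% of 22223 units counted in this way. Against 0d-1 and 0d-2 alone, 11 were lower and 1 higher, beside 51.9% lower and 31.7% higher.

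**Figure D4:**
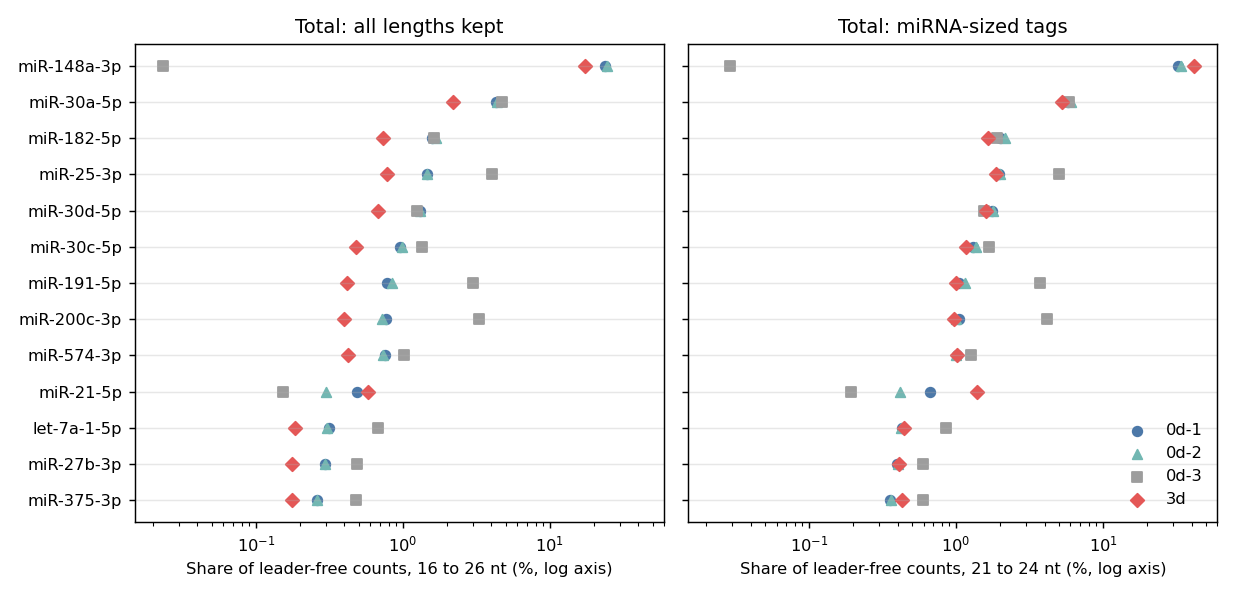
Share of each of the 13 miRNAs (x axis, %, log scale) among leader-free tags of 16 to 26 nt (left) and of 21 to 24 nt (right), 1 symbol per library. On the left 3d lies below the 0 day libraries for 11 miRNAs; on the right it lies near 0d-1 and 0d-2 for most, above all 3 for miR-148a-3p and miR-21-5p, and 0d-3 is far below for miR-148a-3p.

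Across all units, edgeR made no call and DESeq2 made few. edgeR's quasi-likelihood test with Benjamini-Hochberg adjustment, in which the single library of 3 days is assumed to vary like those of 0 days, called 0 of 34275 units (0%) at an adjusted p under 0.05, and 23 units had an unadjusted p under 0.05. DESeq2 called 85 (0.248%), of which 2 were higher and 83 lower, and all 83 had 0 counts in 3d. Of these 83 units, 79 had their highest 0 day share in 0d-3. For miR-148a-3p the log2 fold change was -0.59 ± 4.75 (SE) in edgeR with an adjusted p of 0.95, and the adjusted p of the 13 miRNAs ranged from 0.92 to 1.0. Without 0d-3, edgeR called 20444 of 29933 units (68.3%), of which 12388 (41.4%) were lower and 8056 (26.9%) higher at 3 days. Among the calls were 12 of the 13 miRNAs, all lower. In that fit the spread comes from 1 pair of libraries, and the median unit of that fit was itself lower by 1.37 on the log2 scale. The log2 fold changes of the called miRNAs ran from -1.14 for miR-148a-3p to -1.80 for miR-182-5p. Those of miR-148a-3p and miR-375-3p (-1.19) lay above that median and the others below it. miR-21-5p was at -0.08 ± 0.10 (SE).

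The largest units of 3d were mostly others than those of 0 days, and the same held for 0d-3 against 0d-1 and 0d-2. The 10 largest took 19.1% of the kept counts in 0d-1, 19.1% in 0d-2, 59.5% in 0d-3 and 15% in 3d, and the value of 3 days lay below the 0 day range. With the leaders removed the shares were 27.3, 27.7 and 59.4% at 0 days and 29.8% at 3 days, so that 3d lay inside the range and above 0d-1 and 0d-2. Among the 10 largest of 3d, 1 was also among the 10 largest of 0d-1 and of 0d-2, miR-148a-3p, and 0 were among those of 0d-3. 0d-3 in turn shared 1 of its 10 largest with 0d-1 and with 0d-2. Among the 10 largest leader-free tags, 4 of 3d were shared with 0d-1, 4 with 0d-2 and 1 with 0d-3. In 0d-1, 0d-2 and 3d, 7 of the 10 carried a leader, which was leader 1 or 2 at 0 days and leader 3 or 4 at 3 days. The leader 2 tag shown above led a unit of 69425 counts in 0d-1, 96027 in 0d-2, 0 in 0d-3 and 5543 in 3d. Its counterpart with leader 3 led a unit of 11699, 16729, 0 and 24022 counts. The unit of cccggggtgtggggagggcc, which has no leader, held 24398, 31996, 1066 and 11941 counts. In 0d-3 the largest units after the tag shown above were those of gactcttagcggtggatcactcggc with 642759 counts and of miR-30a-5p with 638380, and the first of these had 346 counts in 0d-1, 711 in 0d-2 and 208 in 3d.

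The units with the highest ratios at 3 days were of 2 kinds. By the ratio of the share at 3 days to the mean share at 0 days, among units with at least 1000 counts in a library and outside the 0 day range, the leading unit was that of cgacccctagcctgggaacc. It was counted 2 times in 0d-1, 1 time in 0d-2, 9 times in 0d-3 and 3994 times in 3d. The unit of caacccctagcctgggaacc followed with 2, 3, 16 and 2058 counts. The next 3 were 16-nt tags of the family above, with gtcacggtGGCCGTGA at 0, 2, 79 and 1917 counts, gctgtgatGGCCGTGA at 0, 5, 110 and 2452, and gcagcgatGGCCGTGA at 3, 66, 222 and 3861. The log2 ratios of these 5 ran from 7.49 to 11.94. Against 0d-1 and 0d-2 alone, 4 of the 5 were the same, and ggtagcgtGGCCGTGA with 4, 58, 556 and 3855 counts took the place of the last. All 6 of these units also occurred at 7 days. The leading unit had 203 counts there, 20 at 21 days and 2 in each of the other later libraries. ggtagcgtGGCCGTGA had 2434 counts at 7 days, which were 0.230% of the counts of 16 to 26 nt, above its 0.155% at 3 days.

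In the ranking of the lowest ratios, a count of 0 at 3 days was taken as 3 counts, and a count of 1 was left as it was. A unit seen 1 time there could thus rank before units not seen. The ranking also depended on which 0 day libraries were used. Against all 3, the 5 units with the lowest ratios were those of 0d-3, such as gtcaggatgaccgagcggtct with 35, 47, 75045 and 6 counts and the largest tag of 0d-3, whose unit had 1786, 3418, 4149238 and 664. Against 0d-1 and 0d-2, all 5 were tags of 26 nt with leader 1 or 2. The lowest ratio was that of CGTGAaaaccgttaccattactgagt, with 617 counts in 0d-1, 1033 in 0d-2, 53 in 0d-3 and 9 in 3d. The others were CGTGActgacctatgaattgacagcc with 965, 1300, 0 and 19 counts, AAGCTctgacctatgaattgacagcc with 2220, 3487, 0 and 54, AAGCTaacccgtagatccgatcttgt with 1840, 2775, 0 and 49, and AAGCTcgtaccgtgagtaataatgcg with 1087, 1610, 0 and 29. Their log2 ratios ran from -5.67 to -4.70. Summed over the 4 leaders, the remainders differed less. aaaccgttaccattactgagt held 0.129% of leader-carrying counts in 0d-1, 0.166% in 0d-2 and 0.0323% in 3d, where 86.8% of its counts followed leaders 3 and 4. aacccgtagatccgatcttgt held 0.189%, 0.223% and 0.0701%.

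Other RNAs and controls gave a background for these values. Tags that overlap the 3′ q-PCR primer of 5S rRNA took 1.58% of the counts of 16 to 26 nt in 0d-1, 1.64% in 0d-2, 0.395% in 0d-3 and 1.28% in 3d. U6 snRNA primers matched 0 tags in each library. miRNAs of other organisms, which pig milk should lack, were also counted. The 3 worm miRNAs with listed primers were at 0 among leader-free tags of all 4 libraries, and behind a leader cel-miR-2-3p was counted 11 times in 0d-1, 13 times in 0d-2 and 1 time in 3d by its first 16 nt. Without a leader the plant miRNA ath-miR-159a was counted by its first 20 nt, 5 times in 0d-1, 0 times in 0d-2, 5 times in 0d-3 and 0 times in 3d. Behind a leader it was counted by its first 16 nt, 26, 27, 0 and 6 times, so that the 2 sets of counts are not on the same footing.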

How the data were processed

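Small RNA of porcine milk exosomes was sequenced on an Illumina Genome Analyzer II. The tables that the authors deposited give, per library, the counts of each distinct read, without normalization. The deposited reads of the 4 libraries were 40 nt long and carried the 3′ adaptor, so that the filters of the study on length and counts were not in them. An adaptor match of 8 nt ended each insert. Inserts of 16 to 26 nt with more than 10 counts were kept. The 13 miRNAs were recognised by their first 20 nt, and the rest were joined into units with a common start of 18 nt. The leaders are the 4 most frequent inserts of 5 nt. The members and lists were chosen with earlier results of these data known. Named were the 13 miRNAs, the units among the 10 largest of a library, and the 5 largest rises and falls of units with at least 1000 counts in a library, outside the 0 day range, against all 3 libraries and against 0d-1 and 0d-2, with a 0 at 3 days taken as 3 counts. SEs of edgeR are the log2 fold change over the square root of F. 1 unit of 0d-3 among the falls and 1 among its largest, which resemble sequencing adaptors, are not printed. R 4.3.3, edgeR 4.0.16 (filterByExpr, TMM), DESeq2 1.42.0, Python 3.11.15, numpy 2.4.6 and scipy 1.17.1 were used. The code was tested on simulated data with far less spread between libraries than these, whose common dispersion in edgeR was 4.16. That test cannot tell whether edgeR could call units in these data. Alternatives were other count minimums, adaptor lengths, miRNA matches, totals, normalizations, single tags, thinning to 2489354 counts, tags without leaders, leaders removed and leaving out each 0 day library.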

Additional observations from a re-analysis of the deposited data

Results flagged for a closer look

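Inserts of 27 to 32 nt and of 4 nt lie outside the kept tags of 16 to 26 nt and were looked at again. Inserts of 27 to 32 nt made up 1.48% of the reads in 0d-1, 2.61% in 0d-2, 6.91% in 0d-3 and 0.359% in 3d, above the limit that a count of 0 allows in every library and lowest at 3 days. Inserts of 4 nt made up 2.86% in 0d-1, 2.32% in 0d-2, 0.229% in 0d-3 and 8.32% in 3d, the highest of the 4. The 4-nt sequence GTAG took 0.272% of these in 0d-1, 9.32% in 0d-2, 85.4% in 0d-3 and 66.9% in 3d. What these inserts are was not tested. Groups of 3 libraries and single libraries were not screened for outliers.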

How the results depend on the processing

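The shares of 21 to 24 nt, of the 10 largest units and of tags with a leader were set against the 0 day mean. Their differences kept their sign under the alternatives run for them. They moved by less than the 0 day SD, except for 21 to 24 nt with the leaders removed. That limit is loose for the leaders and the 10 largest units, since 0d-3 widened the SD. For the leaders the SD was 41.0 against a difference of 28.2 percentage points. The 10 largest units took 59.5% in 0d-3 against 19.1% in 0d-1 and in 0d-2. Leaving out each 0 day library in turn moved the difference for 21 to 24 nt between -43.1 and -33.2 percentage points, for the 13 miRNAs between -10.6 and -4.86, for miR-148a-3p between -2.79 and 0.840, for the 10 largest units between -24.3 and -4.16 and for the leaders between 4.55 and 40.3. For 21 to 24 nt, the 13 miRNAs, the 10 largest units and the leaders the smallest difference was the one without 0d-3. The number of the 13 miRNAs outside the 0 day range lay between 11 and 13 when a library was left out and between 8 and 12 under the other alternatives. With leader-free tags of 21 to 24 nt as the total, chosen after seeing the data, the difference of the 13 miRNAs turned to 15.8 percentage points and that of miR-148a-3p became 19.6, and with the 13 miRNAs as the total the latter was 27.4. With the leaders removed, also chosen afterwards, the differences were -21.8 for 21 to 24 nt, -8.32 for the 10 largest units, where 3d came inside the 0 day range, -3.91 for the 13 miRNAs and 3.13 for miR-148a-3p. The total of 21 to 24 nt left out the 16- to 20-nt tags that filled 3d. edgeR called 0 units in all its alternatives but 1, with 0 to 20444 calls when a 0 day library was left out, the highest without 0d-3. DESeq2 called 85, and 23 units had an unadjusted p under 0.05. No paired analysis was possible because 3 days has 1 library. The precision is limited by that single pooled library and by 0d-3, and differences between stages and between libraries cannot be told apart.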
